A study of Mus musculus with 2 samples.

Results

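Cell cycle and DNA replication genes were examined as a set of 52 genes of the 43346 mouse genes in the tables, chosen by symbol from textbook roles: 9 of G1, 19 of S phase, 20 of G2 and mitosis, and 4 inhibitors. All 52 symbols had a row in both gene tables. The tables come from 2 RNA-seq libraries of newborn mouse midbrain, 1 from pup 1 (replicate 1) and 1 from pup 3 (replicate 2). Both pups were of the B6NCrl strain, a C57BL/6N line, and were taken at postnatal day 0, with no treatment named in the labels. Each library was amplified by a SMART-type protocol from 13 pg of RNA longer than 200 nucleotides, given as 1 cell-equivalent. The RNA was extracted from the midbrain of a single pup, so the values average over cells although the assay is named single-cell. The labels give no sex and list the same donor record for both. As there is a single group, the design holds no comparison of conditions, and no p-value was computed.

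Cells pass through the cycle by switching pairs of cyclins and cyclin-dependent kinases. Cyclin D with Cdk4 or Cdk6 inactivates the retinoblastoma protein and so frees E2F factors, which turn on the genes of DNA replication; cyclin B with Cdk1 later drives mitosis. Inhibitors of the kinases hold cells in G1 or outside the cycle, as in neurons. The dividing cells of the newborn midbrain include glial progenitors, vascular cells and immune cells.

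Promoter sequences are shown for 5 genes whose products work together but were read mainly in opposite libraries: Mcm5 and Mcm6, subunits of the replicative helicase, and Cdk1 with its partners Ccnb1 and Ccnb2. Mcm6, Cdk1 and Ccnb2 were read mainly in pup 1 and Mcm5 and Ccnb1 mainly in pup 3, with the values given under each phase. The windows are from RefSeq on GRCm38.p6, 5′ to 3′ on the gene's strand. They end at the RefSeq start site or at the outer edge of the GENCODE gene, whichever is further upstream. They are 180 bases long, or 166 bases for Ccnb1. Capitals mark an E2F site (TTTCCCGC, TTTGGCGC, TTTCGCGC or TTTGCCGC), the cell cycle homology element TTTGAA, or a CCAAT box, each searched on both strands. E2F matches overlap each other where a capital run is longer than 8 bases.
Mcm5, chr8:75109329-75109508 (plus strand): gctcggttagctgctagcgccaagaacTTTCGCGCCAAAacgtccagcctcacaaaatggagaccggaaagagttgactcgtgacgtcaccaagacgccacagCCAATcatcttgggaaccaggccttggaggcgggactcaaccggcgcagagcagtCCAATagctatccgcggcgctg
Mcm6, chr1:128359706-128359885 (minus strand): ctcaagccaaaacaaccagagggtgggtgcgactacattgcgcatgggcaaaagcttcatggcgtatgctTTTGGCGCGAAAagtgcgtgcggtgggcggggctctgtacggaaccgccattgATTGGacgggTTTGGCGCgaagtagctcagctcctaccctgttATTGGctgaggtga
Cdk1, chr10:69352939-69353118 (minus strand): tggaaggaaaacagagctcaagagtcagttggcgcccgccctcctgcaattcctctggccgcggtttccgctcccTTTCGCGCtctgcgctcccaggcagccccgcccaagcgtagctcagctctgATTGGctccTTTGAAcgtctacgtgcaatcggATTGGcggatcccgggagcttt
Ccnb1, chr13:100786571-100786736 (minus strand): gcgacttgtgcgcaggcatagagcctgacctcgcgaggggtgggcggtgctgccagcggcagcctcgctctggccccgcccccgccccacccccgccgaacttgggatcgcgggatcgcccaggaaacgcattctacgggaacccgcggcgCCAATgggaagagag
Ccnb2, chr9:70421555-70421734 (minus strand): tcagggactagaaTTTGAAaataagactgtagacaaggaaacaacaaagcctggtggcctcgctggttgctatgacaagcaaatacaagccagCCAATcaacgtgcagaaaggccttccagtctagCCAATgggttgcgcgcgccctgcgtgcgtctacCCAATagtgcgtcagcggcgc
The printed stretch of Mcm5 held 2 E2F matches and 2 CCAAT boxes, and that of Mcm6 held 3 and 2. The stretch of Cdk1 held 1 E2F match, 1 TTTGAA and 2 CCAAT boxes, that of Ccnb2 held 1 TTTGAA and 3 CCAAT boxes, and that of Ccnb1 held 1 CCAAT box. In windows of 250 bases before the start, available for 43 of the 52 genes, a CCAAT box was present in 15 of 17 G2/M genes (88.2%) and in 10 of 17 S-phase genes (58.8%), against 37.5% of 27025 genes. An E2F match was present in 5 of 17 S-phase genes (29.4%) and in 1 of 17 G2/M genes (5.88%), against 2.16% of all. TTTGAA was present in 7 of 17 G2/M genes (41.2%) and 3 of 17 S-phase genes (17.6%), against 18.3% of all. By library, a CCAAT box was found in 7 of 8 genes at 1 TPM or more in pup 1 only and in 4 of 5 at that level in pup 3 only, so the genes of either library carried it. A match describes the letters and is not evidence of a bound site.

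The libraries held 26583225 and 33142647 expected counts, of which spike-in RNAs took 2.06% and 2.22%. Levels are TPM, a per-length scale in which the transcripts of a library share a fixed total, given first for pup 1 and then for pup 3. A gene was called detected at a TPM of 1 or more. All genes detected numbered 10166 in pup 1 and 9367 in pup 3. Markers checked the label: 8 of 8 pan-neuronal genes were detected in both libraries, with summed TPM of 10957 and 7594. Of 8 midbrain genes only 4 were detected in both, among them the dopamine enzyme gene Th (46.9 and 38.5), while the regional factor En1 stood at 0.05 and 0.97 and En2 at 0.71 and 2.49.

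Markers of cell types that could divide were present in both libraries. Radial glia and astrocyte genes were detected in both in 8 of 10 cases (summed TPM 2345 and 2709), with Gfap at 0 in both. The counts were 4 of 6 for oligodendrocyte precursors (85.7 and 103), 5 of 8 for microglia (153 and 125, with Tmem119 at 0 in both), 5 of 8 for endothelial and mural cells (258 and 272), 6 of 6 for meningeal fibroblasts (2968 and 4003) and 5 of 7 for red blood cells and their precursors (1713 and 2892). The sums rest on a few abundant genes: without Fabp7, a lipid-binding protein of radial glia (1385 and 2053 TPM), the radial glia list summed to 960 in pup 1 and 655 in pup 3. Median log2 ratios of pup 3 to pup 1 were taken over the genes detected in both. They were −0.43 for radial glia and astrocyte genes, −0.31 for endothelial and mural genes and −0.24 for microglia. For oligodendrocyte precursors the median was 0.82, for red blood cells and their precursors 0.77 and for meningeal fibroblasts 0.27. The sign thus differed between the lists. The part of these cell types in the values that follow was not tested, and fewer cells of a type cannot be told apart from less RNA per cell.

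Of the 52 cell cycle genes, 17 were detected in both libraries, 11 in pup 1 alone, 6 in pup 3 alone, and 18 in neither. The 17 were 50% of the 34 detected in at least 1 library, where the share over all genes was 60.8%. The split rests on the limit of 1 TPM. In pup 3, Cdk1 (0.84 TPM, 30 counts) fell just under it and Plk1 (1.02 TPM, 49 counts) just over it. Detection in both was seen for 3 of 9 G1 genes, 7 of 19 S-phase genes, 4 of 20 G2/M genes and 3 of 4 inhibitors. Of the genes detected in at least 1 library these were 3 of 6, 7 of 14, 4 of 11 and 3 of 3, to be read beside the 60.8%. Of all 43346 genes in the tables, 17.0% were detected in both and 72.0% in neither, so the 4 of 20 for G2/M is near the share over all genes, and the 9 of 20 G2/M genes in neither is below it. The summed level of the set was 1033 and 1307 TPM. The 17 genes detected in only 1 library ran there from 1.15 TPM (Ccne1) to 69.1 TPM (Ccnb1), with a median of 26.9, and were counted only through the library in which they were high.

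**Figure D1:**
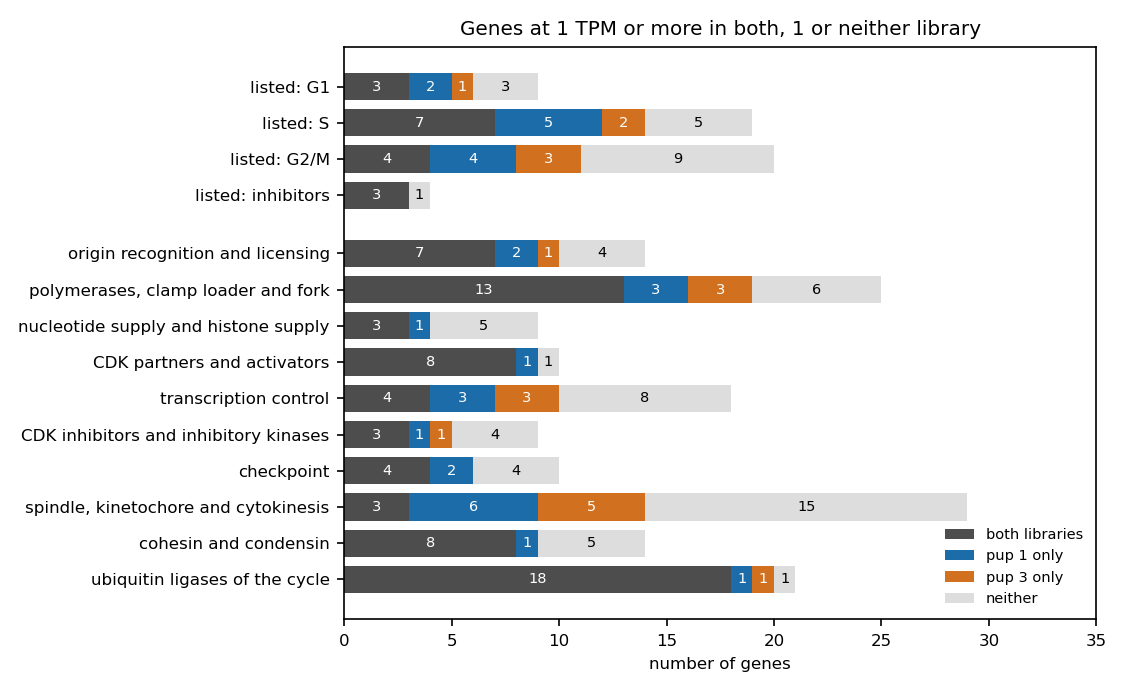
Number of cell cycle genes (horizontal axis) detected at 1 TPM or more in both libraries, in pup 1 only, in pup 3 only or in neither. The upper 4 bars are the phase groups of the set and the lower 10 the roles of a wider list of 159 genes described later; inhibitors of the set have 3 of 4 genes in both libraries, while G2/M has 4 of 20 in both and 9 of 20 in neither.

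The libraries were called different for a gene where its count ratio was beyond 4-fold over the full 95% interval (Clopper-Pearson, exact). Such an interval holds only the error of counting, and amplification of little RNA makes reads that are copies of each other, so a call compares these 2 libraries alone. Of the 34 detected genes, 14 were over 4-fold higher in pup 1 (41.2%, against 25.9% of 12144 genes) and 9 were over 4-fold higher in pup 3 (26.5%, against 20.5%). The other 11 were not called. In 15 of the 23 called genes the lower library held under 3 counts, so that the gene was read in one library and practically missed in the other: 10 of these were read in pup 1 and 5 in pup 3.

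Among the G1 genes, the kinase Cdk4 was the most abundant of the whole set by TPM over all its transcripts, and the D cyclins were read unevenly. Cdk4, which with a D cyclin phosphorylates the retinoblastoma protein (ENSMUSG00000006728.8, GRCm38 chromosome 10, 127063534 to 127067920), stood at 268 and 409 TPM, a mean of 339 ± 99.4 (SD, n = 2). Pup 3 was higher, by 1.52-fold in scaled counts (95% interval 1.46 to 1.59), within the 4-fold limit. The other kinases of G1 were at the floor: Cdk6 stood at 0.02 and 0 TPM (1 and 0 counts), and Cdk2, the partner of cyclin E, at 0.11 and 0.02 TPM (4 and 1 counts).

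Ccnd3, encoding cyclin D3, stood at 26.1 and 68.6 TPM. Ccnd2, encoding cyclin D2 of neural progenitors, stood at 21.6 and 10.8 TPM. The order of these cyclins was therefore the same in both pups, while neither gene was called different. Ccnd1, encoding cyclin D1, was at 12.8 TPM in pup 1 and had 0 counts in pup 3, at least 307-fold lower against the floor of 3 counts that a 0 allows. The E cyclins, which act with Cdk2 at the entry into S phase, split: Ccne2 was at 8.67 TPM in pup 1 and at 0 counts in pup 3, and Ccne1 was at 0 counts in pup 1 and 1.15 TPM in pup 3. E2f1, the E2F factor on the list, had 0 counts in both.

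**Figure D2:**
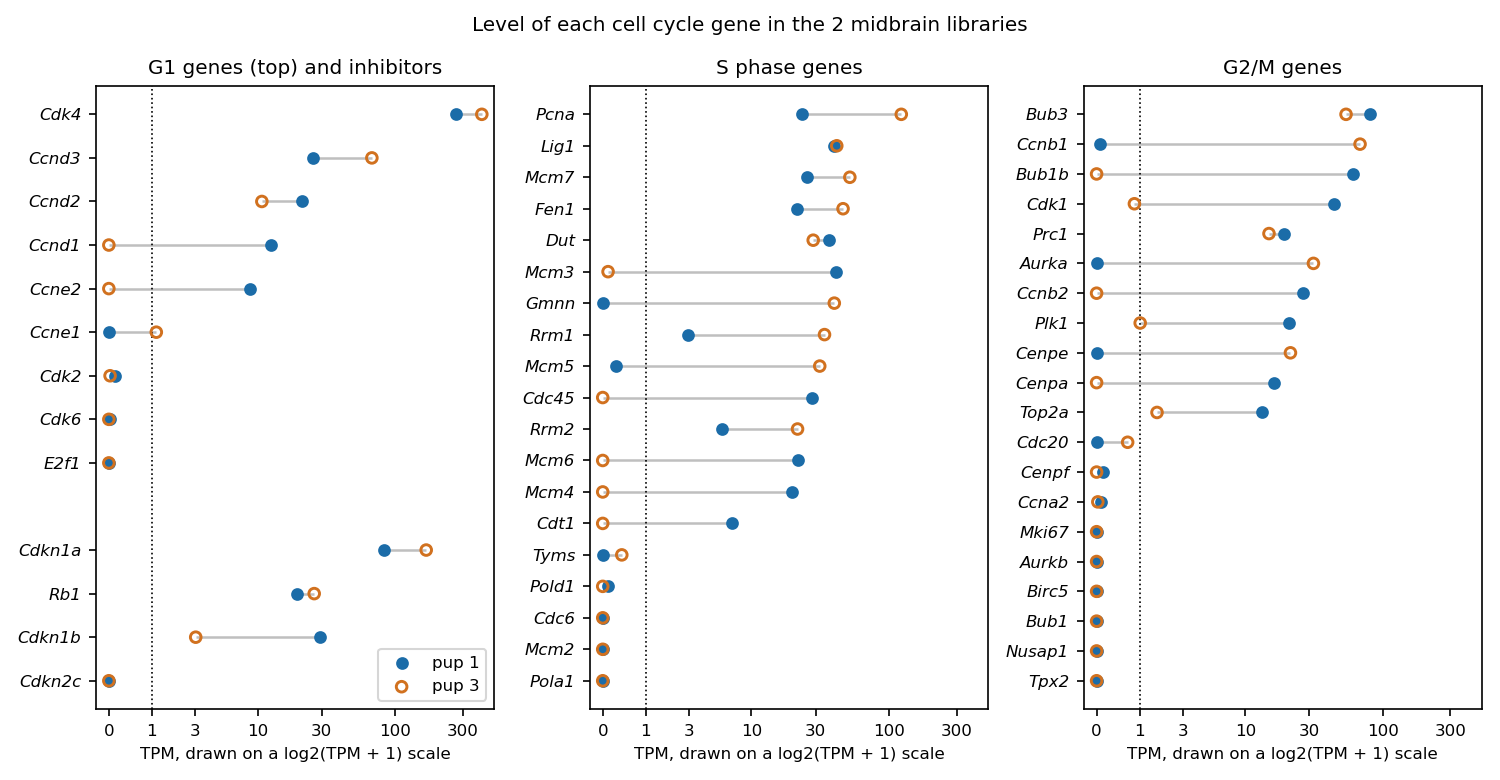
Level of each of the 52 cell cycle genes in pup 1 and pup 3 (horizontal axis, TPM drawn on a log2(TPM + 1) scale), by phase group, with a line joining the pups. Cdk4 sits at the top of both libraries (268 and 409 TPM), and long lines mark genes such as Ccnb1 (0.06 and 69.1 TPM) and Bub1b (61.2 and 0 TPM).

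Among the S-phase genes the highest mean level was that of Pcna, the sliding clamp of DNA polymerases (ENSMUSG00000027342.10, chromosome 2, 132249162 to 132253314). It stood at 24.0 and 122 TPM, below Mcm3, Lig1, Dut, Cdc45 and Mcm7 in pup 1, and was 5.74-fold higher in pup 3 in scaled counts (5.25 to 6.29). The enzymes that finish the lagging strand were read in both pups: Lig1, a DNA ligase, stood at 40.6 and 42.6 TPM (mean 41.6 ± 1.39, n = 2) and Fen1, a flap endonuclease, at 21.8 and 47.2 TPM. Dut, which removes dUTP from the nucleotide pool, stood at 37.7 and 28.8 TPM. None of Lig1, Fen1 and Dut was called different. Most of the Lig1 TPM was on transcripts not annotated as coding, and the leading transcript of Lig1 differed between the pups. Its coding level was 5.74 and 8.77 TPM.

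The helicase MCM, which has 6 subunits that sit together on DNA in equal number, was not read evenly. Mcm7 was the 1 subunit detected in both pups, at 26 and 52.8 TPM. Pup 1 alone held Mcm3 (41.8 and 0.09 TPM, 1996 and 2 counts), Mcm4 (20.3 TPM and 0 counts) and Mcm6 (22.3 TPM and 0 counts). Mcm5 passed the limit of 1 TPM in pup 3 alone (0.24 and 32.1 TPM, 13 and 2432 counts), and Mcm2 had 0 counts in both. So 4 of the 6 subunits stood apart in opposite directions: Mcm4 and Mcm6 were at least 479-fold and 424-fold higher in pup 1, Mcm3 was 1242-fold higher there (343 to 10265), and Mcm5 was 150-fold higher in pup 3 (87.7 to 283). Cdc45, which joins MCM in the active helicase, was like Mcm6, with 28.2 TPM in pup 1 and 0 counts in pup 3.

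The licensing factors were opposite as well. Cdt1, which loads MCM, stood at 7.08 TPM in pup 1 and 0 counts in pup 3, and Gmnn, encoding its inhibitor geminin, had 0 counts in pup 1 and stood at 40.9 TPM in pup 3. Cdc6, the other loader, had 0 counts in both. Rrm1 and Rrm2, the large and small subunits of ribonucleotide reductase, were both higher in pup 3: Rrm1 stood at 2.96 and 34.8 TPM, 13.2-fold apart (11.4 to 15.4), and Rrm2 at 5.89 and 22.2 TPM, 4.20-fold apart (3.61 to 4.91), which did not pass. Pola1, a subunit of the priming polymerase, had 0 counts in both, and Pold1 and Tyms stayed under 1 TPM.

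Among the G2/M genes, 4 of 20 were detected in both pups, and the B cyclins, mitotic kinases and kinetochore genes each split between the pups. Bub3, a checkpoint protein, was the most abundant of those read in both pups, at 80.8 and 54.9 TPM (mean 67.8 ± 18.3, n = 2), and Prc1, which bundles microtubules of the midzone, stood at 19.5 and 15.1 TPM. Bub1b, encoding the checkpoint protein BubR1 that binds Bub3, stood at 61.2 TPM in pup 1 (2447 counts) and at 0 counts in pup 3, at least 1015-fold lower. Checkpoint partners were thus read together in pup 1 only.

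Cdk1, the mitotic kinase (ENSMUSG00000019942.8, chromosome 10, 69335146 to 69352938), stood at 44.9 and 0.84 TPM, 21.3-fold higher in pup 1 (14.8 to 31.9). Ccnb2, encoding cyclin B2, was also read in pup 1, at 26.9 TPM with 0 counts in pup 3. The other partner, Ccnb1 (ENSMUSG00000041431.12, chromosome 13, 100778650 to 100786570), went the opposite way, at 0.06 and 69.1 TPM (2 and 3537 counts), 1421-fold higher in pup 3 (393 to 11737). Ccna2, encoding cyclin A2, was under 0.1 TPM in both, with 0.07 and 0.02 TPM.

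The mitotic kinases split in the same way. Plk1, a kinase of mitotic entry, stood at 21.2 and 1.02 TPM, 18.4-fold higher in pup 1 (13.8 to 25.2), and Aurka, a kinase of spindle poles, had 0 counts in pup 1 and 32.0 TPM in pup 3. Aurkb, the kinase of the chromosomal passenger complex, and Birc5, its partner survivin, had 0 counts in both. At the kinetochore, Cenpa, the centromeric histone, stood at 16.6 TPM in pup 1 and 0 counts in pup 3, whereas Cenpe, a motor protein, had 0 counts in pup 1 and 21.8 TPM in pup 3. Top2a, the topoisomerase that untangles chromosomes, stood at 13.4 and 1.65 TPM, 38.5-fold apart (25.0 to 62.6).

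Mki67, the usual marker of dividing cells, had 1 count in pup 1 and 0 in pup 3, or 0.01 and 0 TPM. The spindle genes Nusap1 and Tpx2 and the checkpoint kinase gene Bub1 had 0 counts in both. Cdkn2c joined these, so that 10 genes of the set had 0 counts in both libraries: E2f1, Cdc6, Mcm2, Pola1, Aurkb, Bub1, Birc5, Tpx2, Nusap1 and Cdkn2c. The deposited upper bounds of TPM for these 10 ran from 0.054 to 1.46 in pup 1 and from 0.039 to 1.05 in pup 3, so a TPM under those bounds could not be told from 0. The other 8 genes detected in neither, Cdk6, Cdk2, Pold1, Tyms, Ccna2, Mki67, Cdc20 and Cenpf, reached at most 0.11 TPM in pup 1 and 0.65 TPM in pup 3.

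Of the inhibitors, 3 of 4 were read in both pups. Cdkn1a, encoding p21 (ENSMUSG00000023067.9, chromosome 17, 29090976 to 29100727), stood at 83.0 and 166 TPM, with a mean of 125 ± 58.8 (n = 2), which in mean level was next to Cdk4 within the set. Cdkn1b, encoding p27, stood at 29.1 and 3.06 TPM, 8.64-fold higher in pup 1 in scaled counts (7.31 to 10.3). Rb1, encoding the retinoblastoma protein, stood at 19.7 and 26.5 TPM, which looks alike, while its counts were 198 and 2745, 11.1-fold higher in pup 3 (9.64 to 12.9). The count and the per-length level of Rb1 thus disagree, and the transcripts described further on show where. Cdkn2c, encoding p18, had 0 counts in both.

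**Figure D3:**
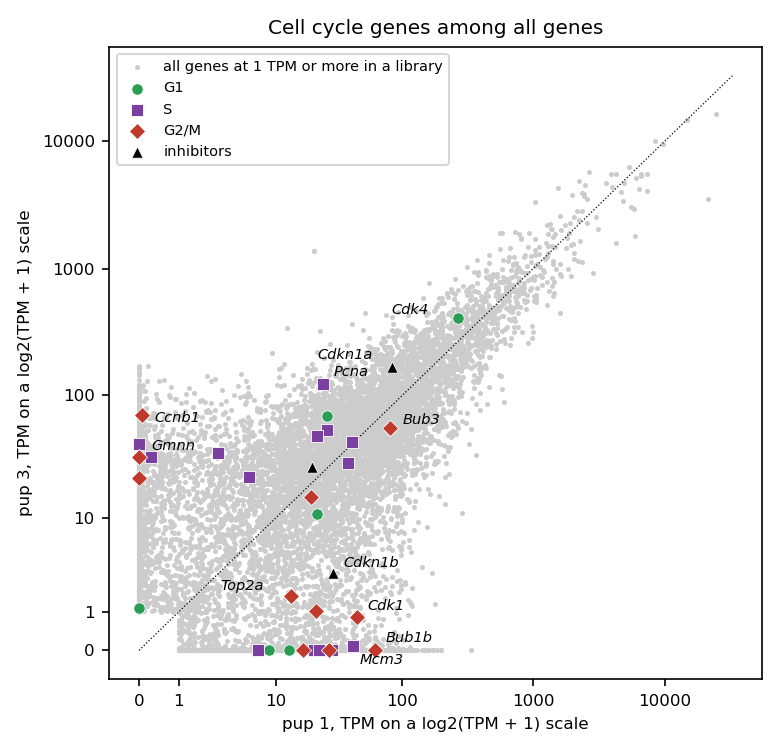
TPM in pup 3 (vertical axis) against TPM in pup 1 (horizontal axis), both drawn on a log2(TPM + 1) scale, for all genes at 1 TPM or more in a library (grey) and the cell cycle genes (coloured by phase group). Members such as Cdk4 (268 and 409 TPM) lie near the diagonal, and those detected in only 1 library lie along or near an axis, at a median of 26.9 TPM.

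Genes missed in one library were set beside all genes of the same level. Pup 1 had 15 cell cycle genes at 20 to 50 TPM, of which 5 were under 3 counts in pup 3 (Mcm3, Mcm4, Mcm6, Cdc45 and Ccnb2), where the share over 2793 genes of that level was 23.4%. Pup 3 had 10 at that level, of which 3 were under 3 counts in pup 1 (Gmnn, Aurka and Cenpe), against 18.6% of 2698 genes. At 50 to 100 TPM it was 1 of 3 for pup 1 (Bub1b, against 10.8%) and 1 of 4 for pup 3 (Ccnb1, against 7.03%). No cell cycle gene at 100 TPM or more was missed. With at most 15 genes per level, nothing is read from these counts about the cell cycle. For the genes detected in both, the median absolute log2 ratio of TPM + 1 was 1.00, against 0.85 for all genes.

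Ratios within a library need no scaling between libraries, and 12 pairs of genes were compared as log2 ratios of TPM + 1, a direction being given where both pups had the same sign and the deposited TPM intervals of the genes did not overlap in either. A direction was given for 9 pairs. Cdk4 exceeded Cdk6 by 8.04 and 8.68 (8.36 ± 0.45, n = 2) and Cdk2 by 7.92 and 8.65 (8.29 ± 0.51). Rb1 exceeded E2f1, the factor it binds, by 4.37 and 4.78 (4.57 ± 0.29). These 3 ratios varied least between the pups, and each has a member at the floor, so their size depends on the pseudocount. In pup 1, 92.8% of the Rb1 TPM was on a short processed transcript, described further on. The coding transcript of Rb1 stood at 1.41 and 26.5 TPM, so the small spread of the Rb1 ratio holds for total TPM only.

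Other ratios kept their sign and varied more. The ratio of Ccnd2 to Ccnd1 was 0.72 and 3.56, and that of Ccnd2 to Ccnd3 was −0.26 and −2.56, so cyclin D3 transcripts exceeded those of D2, and D2 those of D1, in either pup. Cdkn1b lay under Cdkn1a, at −1.48 and −5.36, and above Cdkn2c, at 4.91 and 2.02. Bub3 exceeded Bub1b by 0.39 and 5.80, and Cdk4 exceeded Cdk1 by 2.55 and 7.80. Thus the kinase of G1 exceeded the kinase of mitosis in both pups. The remaining 3 pairs changed sign: Gmnn to Cdt1 was −3.01 and 5.39, Rrm1 to Rrm2 was −0.80 and 0.63, and Ccnd2 to Ccnb1 was 4.41 and −2.57.

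Transcripts showed what kind of RNA carried each gene. Among genes with 50 or more counts, transcripts annotated as protein coding held over 50% of the gene's TPM for 23 of 28 in pup 1 and 18 of 21 in pup 3. The exceptions in pup 1 were Cdk1 (43.9%), Cdk4 (43.3%), Cenpa (19.7%), Lig1 (14.1%) and Rb1 (7.17%), and those in pup 3 were Gmnn (45.6%), Cdk4 (40.1%) and Lig1 (20.6%). For Cdk4 and Lig1 the lower coding share was seen in both pups. TPM divides counts by length, so a short transcript weighs more in it than in counts. By expected counts, coding transcripts held over 50% for most of these exceptions. In pup 1 they held 73.6% for Cdk1, 65.4% for Cdk4 and 53.1% for Rb1. In pup 3 they held 71.5% for Gmnn and 60.2% for Cdk4. Only Cenpa (24.6% in pup 1) and Lig1 (17.5% and 42.5%) stayed under 50% by counts. On coding transcripts alone, Cdk4 stood at 116 and 164 TPM and Lig1 at 5.74 and 8.77 TPM. Cdkn1a, all on coding transcripts, stood at 83.0 and 166 TPM, so on this measure Cdk4 was above Cdkn1a in pup 1 but not in pup 3.

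**Figure D4:**
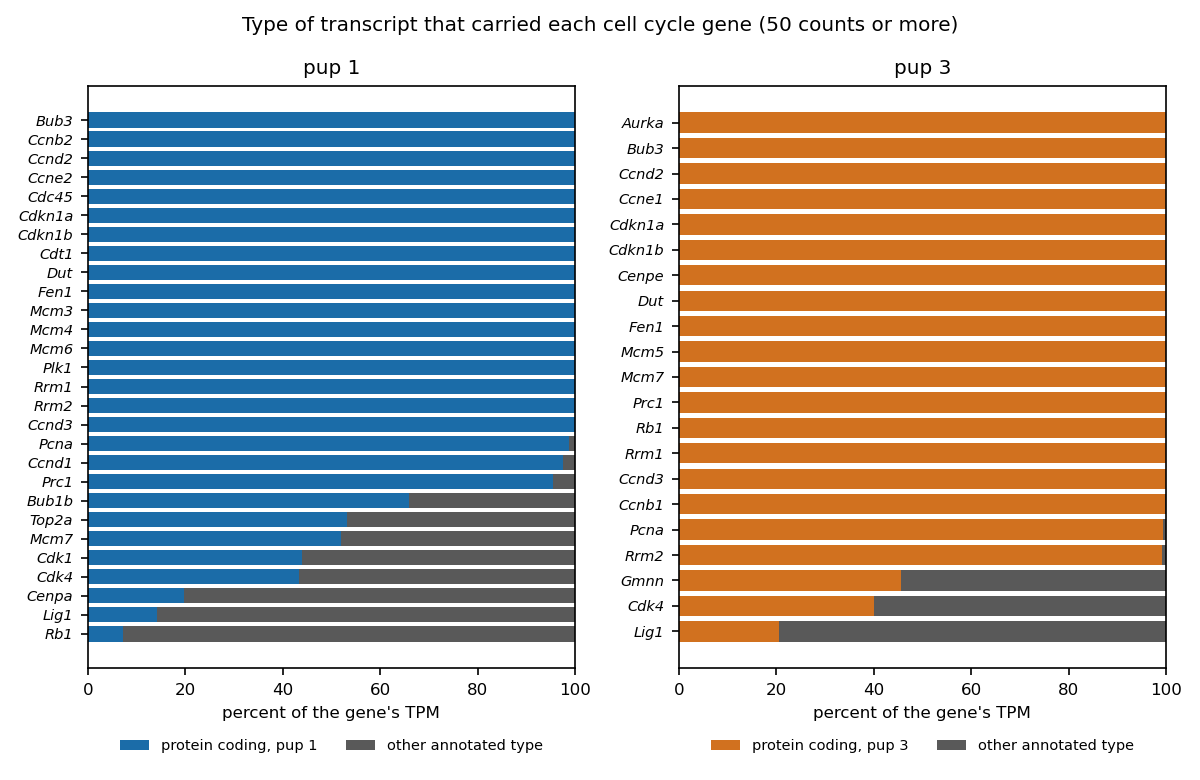
Percent of each gene's TPM on protein-coding transcripts (coloured) and on transcripts of other annotated types (dark grey), for cell cycle genes with 50 or more counts, in pup 1 (left) and pup 3 (right). Most bars are fully coding, and Rb1 (7.17%) and Lig1 (14.1%) have the lowest coding shares in pup 1.

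Rb1 was the clearest case. In pup 1 a processed transcript of 411 bases (ENSMUST00000163932.1) took 92.9 of its 198 counts and 92.8% of its TPM, and the coding transcript of 4656 bases (ENSMUST00000022701.6) took 105 counts and 1.41 TPM. In pup 3 all 2745 counts were on the coding transcript, at 26.5 TPM. On the coding transcript alone the Rb1 level was therefore higher in pup 3, as by counts. In Top2a, coding transcripts held 7.11 TPM in pup 1 and 0.01 TPM in pup 3, where a processed transcript of 632 bases took 19.9 of 21 counts. Counted on coding transcripts only, 16 genes instead of 17 were detected in both libraries, Top2a being read in pup 1 only.

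The leading transcript by TPM was the same in both pups for 8 of 12 genes with 50 or more counts in each and at least 2 transcripts: Ccnd3, Cdk4, Cdkn1a, Cdkn1b, Dut, Mcm7, Pcna and Rrm2. Cdk4 led in both with a retained intron of 468 bases (ENSMUST00000145670.1), at 29.0% and 33.8% of its TPM. The leading transcript differed for Fen1, Lig1, Prc1 and Rb1. In Prc1 one coding transcript of 2912 bases took 81.3% of the TPM in pup 1 and another of 1821 bases took 98.2% in pup 3. By expected counts the leading transcript was also the same for 8 genes, and 7 were the same by both measures. On counts Cdkn1a differed and Rb1 did not. Cdk4 then led in both with a coding transcript of 2053 bases (ENSMUST00000006911.7), at 39.7% and 28.4% of its counts.

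Exons of 10 cell cycle genes overlap a gene on the opposite strand that had 3 or more counts, and whether counting used strand is not given in the sources used here, so reads there cannot be told apart. The largest overlaps were Ccnd1 with LTO1 (1100 bases; LTO1 had 616 and 174 counts), Cdk4 with Tspan31 (641 bases; 1999 and 0 counts) and Ccne2 with Ints8 (609 bases; 4 and 273 counts). Rb1 shares 488 bases with Rcbtb2 (541 and 7 counts). Ccnd3 shares 361 bases with Bysl (1816 and 4375 counts). LTO1 had counts in both pups where Ccnd1 had none in pup 3, and Ints8 had more counts in pup 3, where Ccne2 had none.

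A wider list of 159 other cell cycle genes gave the context by role. Of these, 71 were detected in both libraries, 21 in the library of pup 1 alone, 14 in that of pup 3 alone and 53 in neither, so 67.0% of the 106 detected in at least 1 were in both, close to the 60.8% of all genes. Ubiquitin ligases of the cycle were in both in 18 of 21 cases, or 90% of the 20 detected in at least 1 library, led by Skp1a (495 and 868 TPM), Anapc5 (338 and 407) and Rbx1 (313 and 326), which also serve protein turnover outside the cycle. Cohesin and condensin genes, which hold and fold chromosomes, were in both in 8 of 14 cases, with Smc2 at 66.0 and 67.5 TPM, Smc3 at 40.4 and 85.2 and Smc1a at 63.9 and 55.9. CDK partners and activators gave 8 of 10, led by Ccnh (118 and 63.0), Cks1b (69.4 and 86.2) and Cdc37 (65.8 and 42.0).

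Replication genes beyond the set were read in both in 7 of 14 cases for origin recognition and licensing, where Orc3 stood at 144 and 60.5 TPM, Orc4 at 142 and 42.5 and Orc5 at 26.5 and 67.9. Polymerase, clamp loader and fork genes were in both in 13 of 25 cases, led by Tipin (100 and 106), Pold3 (108 and 51.5) and Rfc2 (55.2 and 103). Nucleotide and histone supply gave 3 of 9, which were Slbp (98.0 and 196), Dctpp1 (135 and 135) and the maintenance methyltransferase Dnmt1 (39.1 and 66.3). Spindle, kinetochore and cytokinesis genes were at the other end, with 3 of 29 in both and 15 in neither, or 21.4% in both of the 14 detected, and no difference between roles was tested: Ckap5, a microtubule polymerase, stood at 147 and 100 TPM, while Cdca8 (0.04 and 50.7) and Kif23 (42.2 and 0) were each read in 1 pup.

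Regulators varied by role. Transcription control genes were in both in 4 of 18 cases, with the retinoblastoma-binding Rbbp4 at 275 and 216 TPM, Tfdp1 at 30.7 and 91.9 and Lin37 at 54.3 and 35.6. Checkpoint genes gave 4 of 10, and the most abundant, Mad1l1, stood at 82.2 and 0.02 TPM, Atrip at 51.2 and 16.9 and Rad17 at 16.5 and 28.7. Further CDK inhibitors and inhibitory kinases gave 3 of 9, led by Cdkn2d, encoding p19 (223 and 147), with Cdkn1c, encoding p57, at 28.9 and 45.2 and Cdkn3 at 0 and 65.9. Both Cdkn1a of the set and Cdkn2d were thus read above 80 TPM in either pup.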

How the data were processed

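A pair of files per pup were used, a gene table and a transcript table. Per the file headers the reads were mapped to mm10 with GENCODE M4; not given in the sources used here were aligner, quantification program and use of strand. The authors deposited expected counts (estimates that need not be whole, rounded here for intervals), TPM, FPKM and, per transcript, the percent of its gene, besides posterior mean counts and TPM with bounds. Rows of spike-in and tRNA were left out of count totals. Gene names, transcript types and positions were taken from GENCODE M21 (assembly GRCm38, that is mm10), and promoters from RefSeq.

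Count ratios were scaled by total counts over genes. A library with 0 counts was set to a floor of 3 counts to give a fold, and the exact interval can reach below that fold. Values in both libraries are given for each gene detected in both, at 20 TPM or more in either, in a pair, or at 0 in both, and for up to 3 genes per role of the wider list by mean TPM. The genes, lists and pairs were chosen with earlier results of these data known. Work was done in Python 3.11.15 with scipy 1.17.1 and pandas 2.3.3, and in R 4.3.3, where edgeR 4.0.16 and DESeq2 1.42.0 gave scaling factors only. The ratio rule was tried on simulated counts that held the error of counting alone. They held no amplification, so the trial does not show how the rule behaves on amplified RNA. Symbols of 3 wider-list genes were matched through aliases. Alternatives were other detection limits, scalings, fold limits, count filters, pseudocounts and left-out replicates, and, chosen after seeing the data, coding transcripts only.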

Additional observations from a re-analysis of the deposited data

How the results depend on the processing

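With 1 library per pup, a difference between pups cannot be told apart from one between amplifications, and a gene with 0 counts may have been present below 3 counts. The 14 and 9 genes called over 4-fold higher in pup 1 and pup 3 were the same genes under TMM, DESeq2 and spike-in scaling, which moved the log2 ratio by −0.19, −0.10 and −0.11, and with posterior mean counts. A 2-fold limit gave 14 genes higher in pup 3, adding Ccnd3, Cdkn1a, Fen1, Mcm7 and Rrm2, where the share over all genes was 29.8%, and an 8-fold limit dropped Cdkn1b and Pcna. With 10 or more counts required in each library, 19 genes could be tested, and 4 in each direction were called (21.1%), against 9.81% and 11.7% of 7948 genes. With the other pup left out, 28 genes were detected in pup 1 and 23 in pup 3, in place of the 17 found in both. The G1 count of 3 became 5 and 4, and the S-phase count of 7 became 12 and 9. The G2/M count of 4 became 8 and 7. None of these counts could fall, since a gene found in both pups is found in each. With both pups kept, the G2/M count was 2 at 10 TPM or more. Of 75 counts recomputed, 66 stayed within 1.5 times the main count. The 9 pairs given a direction kept it with posterior mean TPM. Leaving out 1 pup or changing the pseudocount could not reverse them, since a direction required the same sign in both pups. The mean ratios of the other 3 pairs were 1.19 for Gmnn to Cdt1, −0.09 for Rrm1 to Rrm2 and 0.92 for Ccnd2 to Ccnb1. As the pups had opposite signs in these pairs, leaving out 1 of them had to change the sign. The ratios became −3.01 without pup 3, 0.63 without pup 1 and −2.57 without pup 1. A pseudocount of 0.1 TPM moved the ratios of Cdk4 to Cdk6, Cdk4 to Cdk2, Cdkn1b to Cdkn2c and Rb1 to E2f1 to 11.56, 11.03, 6.59 and 7.84, since each has a gene at or near 0. Posterior mean TPM kept all 34 mean levels within 1 SD. This is a weak check, since both measures come from the same reads and the SD between 2 pups is wide (Ccnb1, 34.6 ± 48.8 TPM). The fold rule needs both libraries, so it was not run with a replicate left out. No paired analysis was possible because the series holds 1 group.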
